A study of Mus musculus with 18 samples.

Results

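The genes described here were 10 members of the immediate early response in the mouse striatum, namely the nuclear receptors Nr4a1, Nr4a2 and Nr4a3, the transcription factor genes Fos, Fosb, Junb, Egr1, Egr2 and Npas4, and Arc. They were chosen by name, with earlier results of these data known, and all 10 were found among the 55421 genes of the count table. Striatal RNA of 18 mice was sequenced at an age between 12 and 14 months, each mouse giving 1 library and all libraries sharing a sequencing lane. The mice were labelled C57BL/6 and fell into 5 WT mice, 5 zQ175 mice, 3 CK2a'(+/-) mice and 5 zQ175:CK2a'(+/-) mice. The zQ175 mouse is a full-length knock-in model of Huntington's disease used here as a heterozygote. CK2a'(+/-) mice lack 1 allele of Csnk2a2, the gene of the catalytic kinase subunit CK2a', and were derived from a line on a mixed 129/SvEv and C57BL/6J background. zQ175:CK2a'(+/-) mice carry both changes. The study asked how the loss of a CK2a' allele alters the striatum of zQ175 mice, so that the comparison of zQ175 with zQ175:CK2a'(+/-) mice is set beside that of each with WT mice. The labels give no sex for a library, and the study's methods give an unequal ratio of females to males in the 4 groups.

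Immediate early genes are transcribed within minutes of synaptic activity, without new protein synthesis, when calcium and cAMP signals reach kinases that phosphorylate CREB and the ternary complex factors bound at their promoters. Most of them encode transcription factors that switch on a later wave of genes, and Arc encodes a protein that acts at the synapse itself. The NR4A receptors are orphan nuclear receptors that can bind DNA as monomers, and some of them also with RXR. Nr4a2 (Nurr1) is known for its part in the making and upkeep of midbrain dopamine neurons, and in the forebrain it marks the claustrum and deep cortical layers.

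The promoters of the NR4A and AP-1 genes are shown because these genes share an input, CREB, and because Nr4a2 was the 1 member that passed a test between genotypes. Each sequence is from RefSeq on GRCm38.p6, runs 5′ to 3′ along the gene, covers bases from 250 before the start site and stops before any annotated exon. Capitals mark the core of the cAMP response element, TGACG, or its reverse complement CGTCA.
Nr4a1, chr15:101266596-101266845, plus strand: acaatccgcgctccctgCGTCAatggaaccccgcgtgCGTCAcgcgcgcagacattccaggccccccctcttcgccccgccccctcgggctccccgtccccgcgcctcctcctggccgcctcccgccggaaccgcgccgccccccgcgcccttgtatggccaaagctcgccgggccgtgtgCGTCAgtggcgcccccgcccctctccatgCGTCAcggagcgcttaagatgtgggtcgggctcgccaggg
Nr4a2, chr2:57124004-57124253, minus strand: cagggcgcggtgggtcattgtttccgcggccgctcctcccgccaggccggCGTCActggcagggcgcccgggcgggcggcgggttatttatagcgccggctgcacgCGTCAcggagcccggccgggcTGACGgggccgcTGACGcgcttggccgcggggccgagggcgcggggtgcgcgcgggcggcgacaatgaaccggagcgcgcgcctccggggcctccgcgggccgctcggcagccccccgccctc
Nr4a3, chr4:48045055-48045152, plus strand: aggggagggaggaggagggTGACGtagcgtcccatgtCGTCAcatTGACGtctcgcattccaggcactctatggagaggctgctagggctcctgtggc
Fos, chr12:85473640-85473889, plus strand: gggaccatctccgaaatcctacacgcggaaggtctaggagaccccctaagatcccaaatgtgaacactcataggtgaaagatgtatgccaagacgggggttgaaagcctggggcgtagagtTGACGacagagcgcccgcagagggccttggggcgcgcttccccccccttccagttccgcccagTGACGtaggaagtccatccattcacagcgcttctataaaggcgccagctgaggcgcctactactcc
Fosb, chr7:19310052-19310295, minus strand: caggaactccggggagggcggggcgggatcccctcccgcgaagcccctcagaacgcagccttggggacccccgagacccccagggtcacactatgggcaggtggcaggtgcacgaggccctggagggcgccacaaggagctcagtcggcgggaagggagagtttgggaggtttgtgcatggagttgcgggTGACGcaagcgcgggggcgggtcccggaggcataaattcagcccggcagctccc
Junb, chr8:84978749-84978998, minus strand: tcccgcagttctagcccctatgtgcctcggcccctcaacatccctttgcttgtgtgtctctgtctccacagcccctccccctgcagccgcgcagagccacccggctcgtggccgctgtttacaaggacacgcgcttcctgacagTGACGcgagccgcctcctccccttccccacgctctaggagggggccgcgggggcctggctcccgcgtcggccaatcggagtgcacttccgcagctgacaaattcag

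Of the 10 members, 8 had a promoter in the RefSeq table, in 12 windows from 250 bases before to 50 bases after a start site. Egr1 and Arc had none there. The core TGACG, searched on both strands, was found in all 8 members and in 10 of their 12 windows, against 20.8% of the 32851 windows of the table and 23.0% of its 27025 genes. Nr4a1, Nr4a2 and Nr4a3 each had 4 matches in their window, Fos and Npas4 2 each, and Fosb and Junb 1 each. For Nr4a3, 1 of the 4 lies downstream of the printed stretch. The core is also part of the full palindrome. The full palindrome TGACGTCA was in 0 of the 12 windows and in 1.79% of all windows. The NR4A monomer element AAAGGTCA, the EGR element GCGTGGGCG and the AP-1 element TGACTCA were also in 0 of the 12 windows, against 1.51%, 0.612% and 5.20% of all windows. The CArG box, the core of the serum response element, was found in 4 of the 12 windows, all 4 of them of Egr2, and thus in 1 of 8 members against 1.81% of all genes. Of these 4 windows, 3 overlap and hold the same match. The 5 windows of Egr2 also count repeatedly in the 10 of 12 windows with the core. The 3 NR4A genes did not differ in the number of cores in these windows, and the letters do not show whether a site was bound.

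Total counts per library ranged from 13612381 to 22702547, and levels are given as CPM, the field's usual count scaled to library size, here with edgeR's TMM factors. Csnk2a2, the targeted gene, lay between 14.7 and 19.9 CPM in the 8 mice with 1 allele and between 29.4 and 37.5 CPM in the other 10, without overlap. Summed markers of striatal projection neurons ranged from 1809 to 7412 CPM, with no marker at 0 in any mouse. zQ175 replicate 1 stood apart with the lowest striatal sum and with 52.2 CPM of midbrain dopamine neuron markers, against 5.00 to 15.9 CPM in the other 17 mice. Choroid plexus markers summed to between 970 and 3064 CPM in 4 mice (WT replicates 1 and 3, CK2a'(+/-) replicate 1 and zQ175:CK2a'(+/-) replicate 2) and to at most 21.5 CPM in the others. In bulk tissue, fewer cells of a type and less RNA per cell cannot be told apart.

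Compared per kilobase of exon, the members spanned a wide range of levels. Egr1 had the highest median over the 18 mice, 40.1 CPM per kb, followed by Arc (24.4), Nr4a1 (12.4), Junb (11.9), Nr4a3 (4.24), Fos (3.75), Fosb (1.81), Npas4 (1.75) and Nr4a2 (1.04 CPM per kb). Each pair of neighbours in this order had ranges over the mice that overlapped. The medians of Nr4a1 and Junb, of Nr4a3 and Fos and of Fosb and Npas4 lay closest, and their order is not resolved. By this median over all 18 mice Nr4a2 was the lowest of the 9 members with counts. Its place depended on genotype, with a mean of 3.14 CPM per kb in zQ175 mice, above Npas4 (1.74) and Fosb (1.57 CPM per kb) in the same mice. In WT mice its mean was 1.28 CPM per kb, beside 1.40 for Npas4 and 1.56 for Fosb. Nr4a2 also had the widest range between mice, 11.8-fold between the lowest and the highest. Fos followed with 7.97-fold and Arc with 5.53-fold, and Fosb had the narrowest range, 2.69-fold.

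Egr2 (ENSMUSG00000037868), an EGR zinc finger factor of the same family as Egr1, was listed at 0 in all 18 libraries. A count of 0 allows up to 3 counts, which is 0.131 to 0.215 CPM in these libraries and covers counting error only. Whether the 0 comes from the transcript or from how reads were counted was not tested, so it sets no limit on expression. The table listed 17841 genes at 0 in all 18 libraries, and Egr2 entered no test. Egr1 in the same libraries had 1856 to 5371 counts.

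The 18 libraries were fitted together in edgeR with its quasi-likelihood test, over the 20914 genes that its filter on low counts kept. A gene is said to have passed where its Benjamini-Hochberg adjusted p was under 0.1. The filter kept 9 of the 10 members. Every adjusted p below comes from this test unless DESeq2 is named, and the 5 pairwise comparisons share groups, WT mice being the control of 3 of them, so their values are set side by side and are not independent. Each library is a separate mouse.

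Of the 3 NR4A receptors, Nr4a2 passed in both comparisons of zQ175 mice with another group of 5, and Nr4a1 and Nr4a3 passed in none. Nr4a2 (ENSMUSG00000026826, GRCm38 chr2:57106830-57124003, minus strand) was measured at 6.33, 5.70, 2.31, 9.06 and 2.64 CPM in the 5 WT mice. In the 5 zQ175 mice it was at 11.7, 9.97, 13.4, 14.4 and 14.2 CPM. In the 3 CK2a'(+/-) mice it was at 2.78, 3.37 and 2.80 CPM, and in the 5 zQ175:CK2a'(+/-) mice at 2.76, 4.52, 1.22, 1.27 and 3.91 CPM. All 5 zQ175 mice lay above all 13 other mice, and the 3 other groups overlapped. The spread within zQ175 mice was small, 12.7 ± 1.89 CPM (SD, n = 5), beside 5.21 ± 2.80 CPM in WT mice (SD, n = 5), 2.98 ± 0.334 CPM in CK2a'(+/-) mice (SD, n = 3) and 2.74 ± 1.499 CPM in zQ175:CK2a'(+/-) mice (SD, n = 5). Counts of Nr4a2 ran from 20 to 264 per library, so the lowest mice rest on few reads.

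Against WT mice, Nr4a2 rose in zQ175 mice by 1.28 on the log2 scale (standard error 0.337, 95% interval 0.58 to 1.98, fold 2.43), with an adjusted p of 0.0990, at the edge of the threshold. It was 1 of 9 members tested that passed, where 1.10% of all genes did, and the 1 member of 9 whose groups did not overlap, where 2.44% of all genes did not. As the members were chosen with earlier results of these data known, these shares are no test of the set. The call was lost in 13 of 18 alternatives, among them each single zQ175 mouse left out (adjusted p up to 0.169) and WT replicates 1, 3 or 5 left out (adjusted p up to 0.230), while the log2 fold change stayed between 1.10 and 1.58 in all 18. Without the 4 mice with choroid plexus markers it was 1.13 (adjusted p = 0.498), and with DESeq2 the difference passed (adjusted p = 0.0135).

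In zQ175:CK2a'(+/-) mice Nr4a2 had a log2 fold change against WT mice of -0.95 (95% interval -1.68 to -0.21, standard error 0.354), which did not pass (adjusted p = 0.416), and the groups overlapped. No member passed in this comparison, where 0.0143% of all genes did. Between zQ175 and zQ175:CK2a'(+/-) mice, in which the 2 differences from WT add up, Nr4a2 ranked 2 of 20914 genes by p. Its fold was 4.68, with a 95% interval of 1.49 to 2.97 on the log2 scale, and the levels did not overlap. It was the 1 member of 9 that passed, where 0.0143% of all genes passed and 1.14% did not overlap. The call (adjusted p = 0.0338) held in 11 of 18 alternatives, DESeq2 among them. Among the alternatives where it was lost were those without zQ175 replicate 3, 4 or 5 (adjusted p = 0.110, 0.131 and 0.113) and without zQ175:CK2a'(+/-) replicate 3 or 4 (adjusted p = 0.158 and 0.157). The log2 fold changes in these 5 were 2.04 to 2.21.

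For Nr4a2 the log2 fold change of CK2a'(+/-) against WT mice was -0.81 (95% interval -1.66 to 0.047, adjusted p = 0.999). That of zQ175:CK2a'(+/-) against CK2a'(+/-) mice was -0.14 (adjusted p = 0.961), with a standard error of 0.414 and an interval that reaches to both sides of 0. The effect of the zQ175 allele on Nr4a2 was thus 1.28 in mice with both CK2a' alleles and -0.14 in mice with 1. The test of that difference, the interaction, gave -1.42 on the log2 scale (standard error 0.529, 95% interval -2.52 to -0.32), with an adjusted p of 0.904. An unadjusted p under 0.05 for the interaction was found for 5.39% of all genes and an adjusted p under 0.1 for 0.00478%, so the difference between the 2 effects did not pass. No member passed in CK2a'(+/-) mice against WT mice, where 0.0143% of all genes did, nor in zQ175:CK2a'(+/-) mice against CK2a'(+/-) mice, where 0.593% did.

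**Figure D1:**
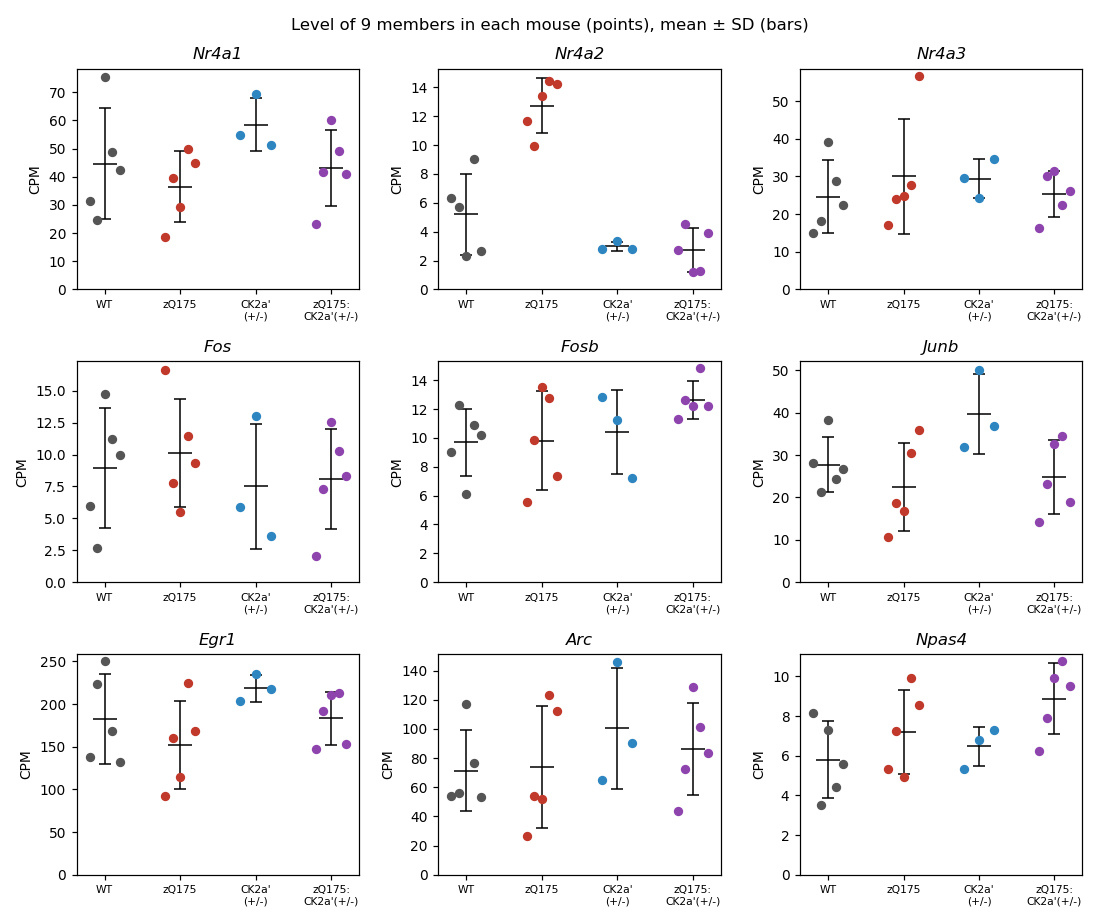
Level of the 9 members with counts, in CPM on linear axes from 0, in each mouse (points) by genotype, with the mean and SD of each group (bars, n = 5, 5, 3 and 5). The zQ175 mice lie above all other mice for Nr4a2, at 9.97 to 14.4 CPM, while for the other 8 members the zQ175 mice overlap the WT and the zQ175:CK2a'(+/-) mice.

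Markers of cortical excitatory neurons tended to be higher in zQ175 mice, with sums that overlapped those of each other group. Their sum over 11 genes was 307, 148, 210, 187 and 410 CPM in zQ175 replicates 1 to 5, against 102 to 175 CPM in WT mice, 90.5 to 216 CPM in CK2a'(+/-) mice and 99.9 to 196 CPM in zQ175:CK2a'(+/-) mice. Of the 10 markers tested, 10 had a log2 fold change above 0 in zQ175 against WT mice (50.6% of all genes), 7 at an unadjusted p under 0.05 (13.9% of all genes), and 1 passed (1.10% of all genes), Tbr1, a deep layer transcription factor, at a log2 fold change of 1.27 (adjusted p = 0.0902). No cortical marker was at 0 in a zQ175 or CK2a'(+/-) mouse, and Emx1, Neurod1, Neurod6 or Slc30a3 were at 0 in some WT or zQ175:CK2a'(+/-) mice. zQ175 replicate 2 had a cortical sum within the WT range, 148 CPM, and its 9.97 CPM of Nr4a2 was above all WT mice. The markers in that mouse were uneven. Slc17a7 was at 29.1 CPM, against 11.9 to 32.2 CPM in WT mice, and Tbr1 at 10.95 CPM, against 2.13 to 5.82 CPM. Without zQ175 replicates 1 and 5, which had the highest cortical sums, the log2 fold change of Nr4a2 was 1.27 against WT mice (adjusted p = 0.270) and 2.21 against zQ175:CK2a'(+/-) mice (adjusted p = 0.149). The part of cortical tissue in the level of Nr4a2 was not tested beyond these values.

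The claustrum, endopiriform nucleus and deep cortical layers, where Nr4a2 is known to be expressed, were followed with 7 markers. Their sum was 49.96 to 63.5 CPM in zQ175, 48.8 to 60.4 CPM in WT, 47.5 to 54.4 CPM in CK2a'(+/-) and 44.9 to 59.1 CPM in zQ175:CK2a'(+/-) mice, and the groups overlapped. Gnb4 and Lxn made up much of this sum, so markers at lower levels weigh little in it. Ccn2, chosen after its values were seen, was at 2.04 to 7.99 CPM in zQ175 and 1.85 to 4.36 CPM in WT mice. It was at 2.74 to 8.23 CPM in CK2a'(+/-) and 1.80 to 3.83 CPM in zQ175:CK2a'(+/-) mice. In both comparisons with zQ175 mice, 4 of the 7 had a log2 fold change above 0 and 3 one below. None of the 7 was at 0 in any mouse. None passed in either comparison with zQ175 mice, and at an unadjusted p under 0.05, 0 of 7 differed from WT and 2 of 7 were higher than in zQ175:CK2a'(+/-) mice, where 13.9% and 6.27% of all genes were at such a p. The part of tissue from these regions in the level of Nr4a2 was not tested beyond these values.

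**Figure D2:**
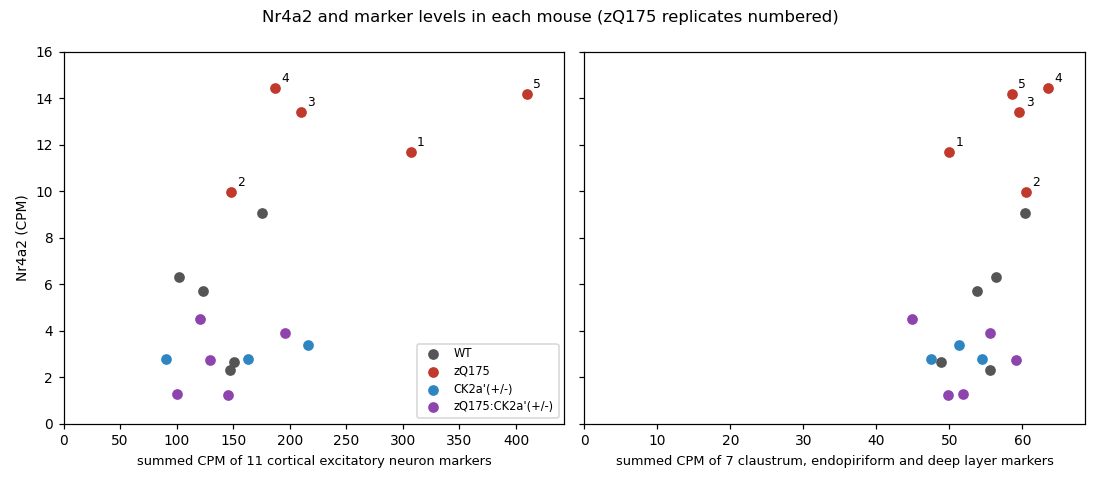
Nr4a2 in CPM (vertical axis) in each of the 18 mice against the summed CPM of 11 cortical excitatory neuron markers (left) and of 7 claustrum, endopiriform and deep layer markers (right), coloured by genotype, with zQ175 replicates numbered. zQ175 replicates 1 and 5 have the highest cortical sums, 307 and 410 CPM, and replicate 2 lies within the WT range at 148 CPM. In the right panel replicate 2 is at 60.4 CPM, level with the highest WT mouse.

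Midbrain dopamine neurons express Nr4a2 too, and their markers differed in 1 mouse. The sum of 52.2 CPM in zQ175 replicate 1 included 17.0 CPM of Slc6a3, the dopamine transporter, which was at 0 to 0.72 CPM in the other 17 mice. Nr4a2 in that mouse, 11.7 CPM, was the second lowest of the 5 zQ175 mice. Without it the log2 fold change of Nr4a2 against WT mice was 1.31 (adjusted p = 0.124). Among the other cell types followed in zQ175 against WT mice, 3 of 11 striatal projection neuron markers, 3 of 4 oligodendrocyte markers and 1 of 5 microglia markers fell, and 0 of 5 astrocyte, 0 of 5 vessel and 0 of 4 choroid plexus markers passed, where 1.10% of all genes did. Between zQ175 and zQ175:CK2a'(+/-) mice no marker of any list passed. At an unadjusted p under 0.05, where 6.27% of all genes were, 4 of 5 microglia, 3 of 4 choroid plexus, 2 of 4 oligodendrocyte and 1 of 5 astrocyte markers had a log2 fold change below 0, and 6 of 10 cortical and 1 of 5 vessel markers one above 0. The part of these cell types in the level of Nr4a2 was not tested.

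Nr4a1 (Nur77, ENSMUSG00000023034, chr15:101254269-101274795, plus strand), a receptor induced with the other immediate early genes, ranged from 24.7 to 75.6 CPM in WT (median 42.3), from 18.7 to 49.99 CPM in zQ175 (median 39.5), from 51.5 to 69.2 CPM in CK2a'(+/-) (median 54.8) and from 23.3 to 60.1 CPM in zQ175:CK2a'(+/-) mice (median 41.6). The groups overlapped in each comparison made, and the zQ175 mice lay below the 3 CK2a'(+/-) mice, a pair of groups that differs in both alleles and was not tested. Its log2 fold change in zQ175 against WT mice was -0.29 (95% interval -0.86 to 0.28, adjusted p = 0.691) and against zQ175:CK2a'(+/-) mice -0.24 (95% interval -0.81 to 0.33, adjusted p = 0.937). Both intervals lay below those of Nr4a2 in the same comparisons.

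Nr4a3 (NOR-1, ENSMUSG00000028341, chr4:48045153-48086447, plus strand) was at 17.0, 23.9, 24.8, 27.7 and 56.5 CPM in zQ175 replicates 1, 2, 3, 4 and 5, and at 15, 18.2, 39.1, 28.7 and 22.3 CPM in WT replicates 1 to 5. It was at 29.5, 24.2 and 34.5 CPM in CK2a'(+/-) mice and at 16.3, 30.1, 31.4, 22.5 and 26.02 CPM in zQ175:CK2a'(+/-) mice. zQ175 replicate 5 was the highest of the 18, and the other 4 zQ175 mice lay within the WT range. The log2 fold change against WT mice, 0.29 (standard error 0.273, adjusted p = 0.695), turned to -0.081 without that mouse.

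The AP-1 genes encode Fos and Jun family proteins that bind DNA as dimers. Fos (ENSMUSG00000021250, chr12:85473890-85477273, plus strand) ranged from 2.68 to 14.8 CPM in WT, from 5.47 to 16.6 CPM in zQ175, from 3.60 to 13.0 CPM in CK2a'(+/-) and from 2.08 to 12.6 CPM in zQ175:CK2a'(+/-) mice. The groups overlapped almost fully, and with a standard error of 0.427 the log2 fold change of 0.19 in zQ175 against WT mice had an interval of -0.70 to 1.079. A rise of Fos by 1 on the log2 scale lay within the interval, and a fall by 1 lay outside it.

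Fosb (ENSMUSG00000003545, chr7:19302696-19310051, minus strand), whose product builds up with repeated stimulation in the striatum, had group means of 9.71 ± 2.33 (SD, n = 5), 9.81 ± 3.43 (SD, n = 5), 10.4 ± 2.90 (SD, n = 3) and 12.6 ± 1.33 CPM (SD, n = 5) in WT, zQ175, CK2a'(+/-) and zQ175:CK2a'(+/-) mice. The log2 fold change of zQ175 against WT mice was 0.0067 (95% interval -0.45 to 0.47), so a change by 1 lay outside the interval. That of zQ175 against zQ175:CK2a'(+/-) mice was -0.37 (standard error 0.221, 95% interval -0.83 to 0.089, adjusted p = 0.849), opposite in sign to Nr4a2.

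Junb (ENSMUSG00000052837, chr8:84974484-84978718, minus strand) was at 31.9, 50.2 and 36.9 CPM in the 3 CK2a'(+/-) mice and at 14.3, 23.3, 32.6, 34.6 and 18.9 CPM in the 5 zQ175:CK2a'(+/-) mice. In WT mice it ranged from 21.2 to 38.3 CPM (median 26.8) and in zQ175 mice from 10.7 to 35.97 CPM (median 18.7). The CK2a'(+/-) mice were on the high side but overlapped each other group. Junb in zQ175:CK2a'(+/-) against CK2a'(+/-) mice was 1 of 9 members with an unadjusted p under 0.05, where 9.19% of all genes were (log2 fold change -0.68, standard error 0.306), and it did not pass (adjusted p = 0.500). Junb overlaps Prdx2 on the opposite strand. The library kit keeps the strand, but whether the counting used it was not given in the sources used here, so some of its counts may be shared.

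Egr1 (ENSMUSG00000038418), a zinc finger factor used as a marker of neuronal activity, was measured with the most counts of all members. Its mean was 182 ± 52.8 CPM in WT (SD, n = 5), 152 ± 51.5 in zQ175 (SD, n = 5), 218 ± 15.97 in CK2a'(+/-) (SD, n = 3) and 183 ± 31.3 CPM in zQ175:CK2a'(+/-) mice (SD, n = 5). The log2 fold change was -0.26 in zQ175 against WT mice (95% interval -0.68 to 0.15, adjusted p = 0.602) and -0.27 against zQ175:CK2a'(+/-) mice (95% interval -0.68 to 0.14, adjusted p = 0.882). Egr1 did not pass in any comparison, and its groups overlapped in each.

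Npas4 (ENSMUSG00000045903, chr19:4984355-4990316, minus strand), a factor induced by calcium entry in neurons, was at 8.17, 3.52, 7.28, 4.44 and 5.56 CPM in WT mice and at 6.25, 7.90, 9.92, 10.8 and 9.495 CPM in zQ175:CK2a'(+/-) mice. In zQ175 mice it was at 5.34, 7.24, 4.92, 9.89 and 8.55 CPM and in CK2a'(+/-) mice at 5.35, 6.78 and 7.27 CPM. Of the 5 zQ175:CK2a'(+/-) mice, 3 were above all WT mice, and the other 2 lay within the WT range. Npas4 in zQ175:CK2a'(+/-) against WT mice differed by 0.62 on the log2 scale (95% interval 0.13 to 1.10) and did not pass (adjusted p = 0.422). With Nr4a2 it made 2 of 9 members with an unadjusted p under 0.05, where 9.13% of all genes were, and their log2 fold changes had opposite signs.

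Arc (ENSMUSG00000022602, chr15:74669083-74672570, minus strand), which encodes a postsynaptic protein that removes AMPA receptors from the synapse, ranged from 53.0 to 117 CPM in WT (median 55.9), from 26.3 to 123 CPM in zQ175 (median 54.2), from 64.9 to 146 CPM in CK2a'(+/-) (median 90.4) and from 44.0 to 129 CPM in zQ175:CK2a'(+/-) mice (median 83.7). The log2 fold changes were 0.045 in zQ175 against WT (95% interval -0.67 to 0.76) and -0.23 in zQ175 against zQ175:CK2a'(+/-) mice (95% interval -0.94 to 0.49). Arc did not pass in any comparison, and its level differed up to 5.53-fold between mice.

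**Figure D3:**
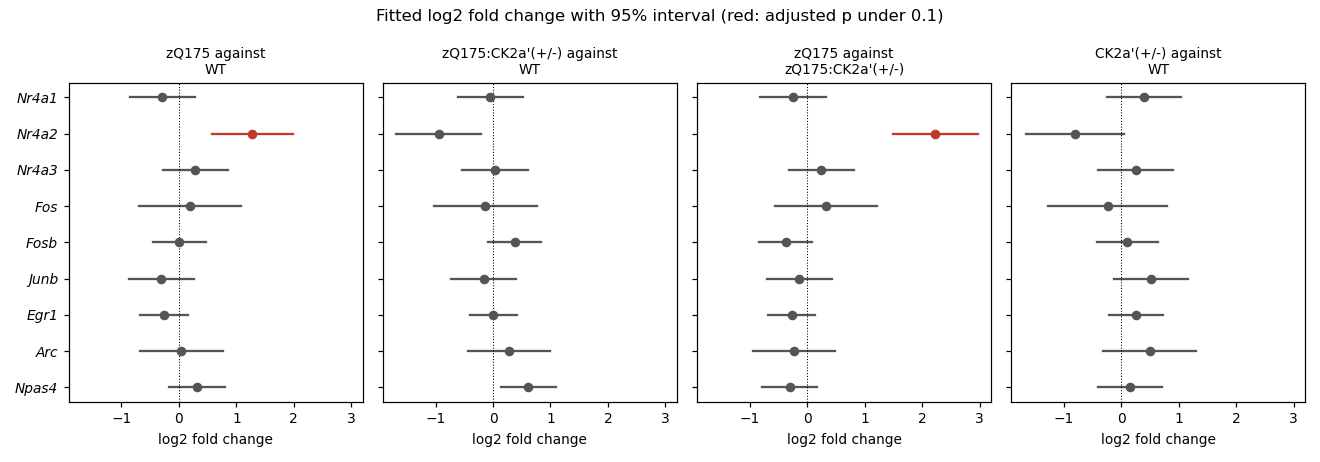
Fitted log2 fold change (points) with its 95% interval (lines) of the 9 members tested, in 4 of the comparisons, with members that passed at an adjusted p under 0.1 in red. Nr4a2 is the red point in zQ175 against WT mice (1.28) and against zQ175:CK2a'(+/-) mice, and the intervals of the other 8 members include 0 except that of Npas4 in zQ175:CK2a'(+/-) against WT mice (0.13 to 1.10).

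Over the 9 members tested, the median log2 fold change was 0.045 in zQ175 against WT mice, beside 0.0042 over all genes tested. It was 0.0065 in zQ175:CK2a'(+/-) against WT mice (all genes -0.0087), -0.23 in zQ175 against zQ175:CK2a'(+/-) mice (0.0051), 0.25 in CK2a'(+/-) against WT mice (-0.0057) and -0.22 in zQ175:CK2a'(+/-) against CK2a'(+/-) mice (0.0041). Members above 0 numbered 6 of 9, 5, 3, 7 and 3 in these comparisons in this order, where 50.6%, 48.5%, 51.1%, 48.9% and 50.7% of all genes were above 0. At an unadjusted p under 0.05 there were 1, 2, 1, 0 and 1 of 9, where 13.9%, 9.13%, 6.27%, 4.48% and 9.19% of all genes were. Members whose groups did not overlap numbered 1, 0, 1, 0 and 0, where 2.44%, 1.84%, 1.14%, 3.20% and 8.34% of all genes did not. For the interaction the median was -0.15 over members and -0.0019 over all genes, and 3 of 9 members were above 0 (49.7% of all genes). At an unadjusted p under 0.05 there was 1 of 9 (5.39% of all genes). In zQ175 against zQ175:CK2a'(+/-) mice 6 of 9 members were lower and 3 higher, with Nr4a2 the farthest from 0 of the 9.

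Some mice lay below or above the others of their genotype in several members. Taken against the mean of the WT mice, the median log2 difference over the 9 members was -0.76 in zQ175 replicate 1, which was the lowest of all 18 mice in 5 of them (Nr4a1, Fosb, Junb, Egr1 and Arc) and the highest of all 18 in Fos. It was -0.63 in zQ175:CK2a'(+/-) replicate 1, the lowest of its group in 8 of 9. It was 0.51 in WT replicate 3, the highest of its group in 6, and 0.43 in zQ175 replicate 4, which was above the WT mean in all 9. zQ175 replicate 1 was also the mouse with the lowest striatal sum (1809 CPM), and WT replicate 3 was 1 of the 4 with choroid plexus markers, and the part of tissue content in these levels was not tested.

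**Figure D4:**
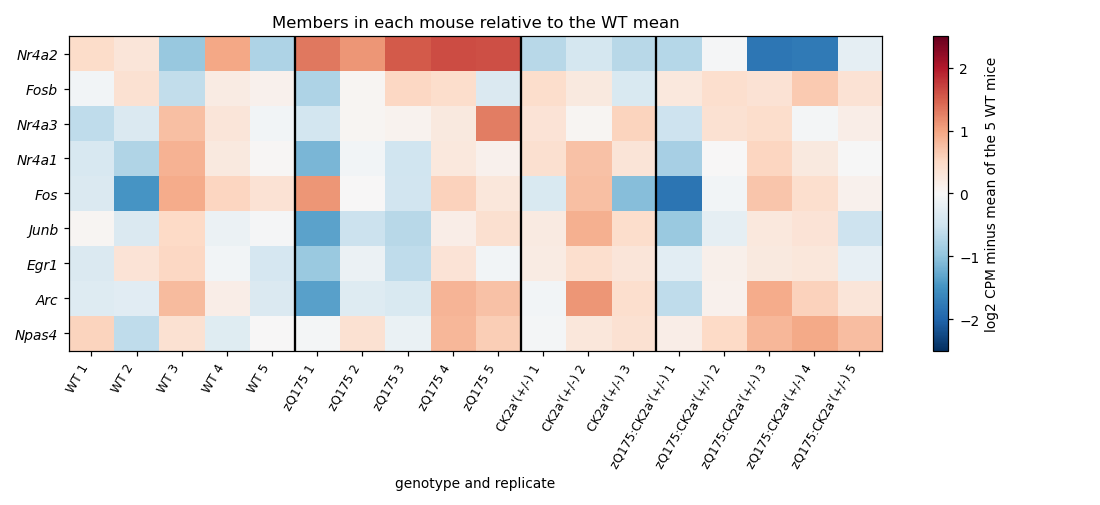
log2 CPM of the 9 members with counts in each of the 18 mice minus the mean of the 5 WT mice (red higher, blue lower), with mice ordered by genotype and replicate. zQ175 replicate 1 and zQ175:CK2a'(+/-) replicate 1 are blue in most rows (medians -0.76 and -0.63), and Nr4a2 is red in all 5 zQ175 mice.

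After each group's mean was taken off, the members varied together over the 18 mice to unequal degrees, and Nr4a2 had low values of r with the others. Pearson's r of log2 CPM was 0.92 for Junb and Arc (rho 0.79, and r 0.88 without the 2 farthest mice), 0.88 for Nr4a1 and Arc (rho 0.87, r 0.82) and 0.84 for Nr4a1 and Junb (rho 0.83, r 0.79). The 2 farthest mice are those farthest from the median of the gene named first in a pair, so they can differ between pairs. The 21 pairs of the 7 members other than Nr4a2 and Fosb, which were set apart for their low r, ran from 0.15 (Fos and Egr1) to 0.92, with a median of 0.65. Without the 2 farthest mice Fos and Npas4 fell from 0.47 to 0.10 and Nr4a3 and Npas4 from 0.36 to 0.18. Nr4a2 gave -0.34 to 0.21 with the 8 others, and without the 2 farthest mice its r turned from -0.12 to 0.19 with Nr4a3, from -0.17 to 0.11 with Arc and from -0.19 to 0.046 with Egr1. Fosb gave -0.21 to 0.21. These values describe mice that share library preparation and scaling, and no p is given for them.

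**Figure D5:**
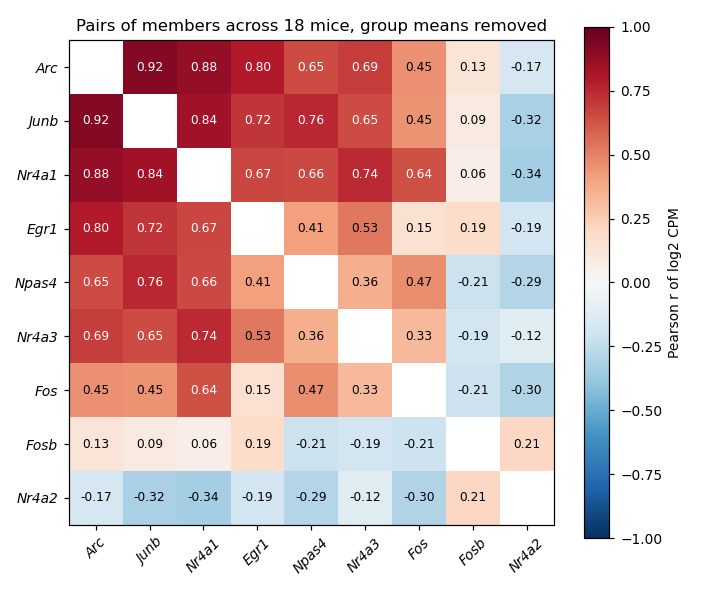
Pearson's r of log2 CPM for each pair of the 9 members with counts over 18 mice after each group's mean was removed (red above 0, blue below). Arc, Junb, Nr4a1 and Egr1 form a block at 0.67 to 0.92, and the row of Nr4a2 lies between -0.34 and 0.21.

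The genes most like Nr4a2 by this measure, among 20905 genes, were Gm27353 (r = 0.83), Pcdha6 (0.81), Wdr5b (0.80), Gm36527 (0.78) and Arhgap11a (0.78), of which Gm27353 had 235 counts over all 18 mice. Those most like Arc were Mir132 (r = 0.90), Egr4 (0.81), 1700016P03Rik (0.80), Gm11749 (0.80) and C5ar1 (0.79). Egr4 is itself an immediate early gene, and Mir132 is a microRNA gene known to be induced by CREB. The deposited counts of a microRNA gene in total RNA cover its precursor. The highest of 20905 values is large for any gene by choice, and no p is given.

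Other genes of the response were read from lists. Of 18 other immediate early transcription factor genes tested (such as Jun, Egr3, Egr4 and Atf3), 0 passed in zQ175 against WT mice and 0 against zQ175:CK2a'(+/-) mice, and at an unadjusted p under 0.05 there were 3 of 18 in each, where 13.9% and 6.27% of all genes were. Their median log2 fold change was -0.12 and -0.14 in these comparisons, beside 0.0042 and 0.0051 over all genes. Per1, a clock gene that also responds to CREB, was the 1 gene of this list that passed in any comparison. It was at 140 to 165 CPM in CK2a'(+/-) and 85.9 to 114 CPM in zQ175:CK2a'(+/-) mice, without overlap, as 8.34% of all genes were in this comparison (log2 fold change -0.54, adjusted p = 0.0717). It passed in 4 of 15 alternatives (adjusted p up to 0.321). Klf4, chosen after its values were seen, was at 2.86, 3.30, 2.52, 4.15 and 1.40 CPM in zQ175 mice and at 5.18 to 7.75 CPM in zQ175:CK2a'(+/-) mice, without overlap, as 1.14% of all genes were in this comparison. It did not pass (log2 fold change -1.13, adjusted p = 0.419). Klf4 passed in 1 of 18 alternatives, DESeq2 (adjusted p = 0.0817).

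Of 20 immediate early signalling and effector genes, such as phosphatases of the Dusp family, Sik1 and Homer1, 0 passed in any comparison, and 7 in zQ175 against WT mice and 2 against zQ175:CK2a'(+/-) mice of the 20 had an unadjusted p under 0.05, where 13.9% and 6.27% of all genes did. The list's median log2 fold change was -0.11 and -0.057 in these comparisons. The 2 genes of the latter were Rgs2, a regulator of G protein signalling (log2 fold change -0.42, adjusted p = 0.694), and Ptgs2, the inducible cyclooxygenase (0.90, adjusted p = 0.748). Ptgs2 was at 8.71 CPM in zQ175 replicate 5 and at 1.36 to 3.19 CPM in the other 4 zQ175 mice.

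Among 13 delayed genes, which follow the first wave, 1 rose and 1 fell in zQ175 against WT mice, where 1.10% of all genes passed, with a list median log2 fold change of 0.058. Bdnf, a neurotrophin that cortical neurons make and carry to the striatum, was at 10.1, 3.88, 2.09, 3.03 and 14.5 CPM in zQ175 and at 0.32 to 1.74 CPM in WT mice, without overlap (log2 fold change 2.72, standard error 0.647, adjusted p = 0.0726). The 2 highest zQ175 values were those of replicates 1 and 5, the mice with the highest cortical sums, and without both the log2 fold change was 1.55 (adjusted p = 0.430). Against zQ175:CK2a'(+/-) mice Bdnf differed by 2.66 and did not pass (adjusted p = 0.419), but passed in 1 of 18 alternatives, with no filter on low counts (adjusted p = 0.00975). Penk, the enkephalin precursor of indirect pathway projection neurons, fell by 1.00 on the log2 scale (adjusted p = 0.0610), from 491 to 1214 CPM in WT to 229 to 464 CPM in zQ175 mice. Penk is also a marker of striatal projection neurons, of which 11 of 11 had a log2 fold change below 0 and 3 passed. Of all genes, 50.6% were above 0 and 1.10% passed in this comparison. In zQ175:CK2a'(+/-) against CK2a'(+/-) mice Penk fell by 1.04 (adjusted p = 0.0989) and Pcsk1, a prohormone convertase, rose by 1.01 (adjusted p = 0.0989). These calls were lost in most alternatives, Penk passing in 5 and Pcsk1 in 4 of 15.

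Of 17 upstream kinases and transcription factors, 1 rose and 1 fell in zQ175 against WT mice, where 1.10% of all genes passed, with a list median of 0.042, and 0 passed against zQ175:CK2a'(+/-) mice. Creb1, which binds the cAMP response element, was at 59.2 to 68.1 CPM in zQ175 and 47.4 to 56.1 CPM in WT mice (log2 fold change 0.30, standard error 0.0695, adjusted p = 0.0613). It was at 57.3 to 64.9 CPM in zQ175:CK2a'(+/-) mice, with a log2 fold change of 0.30 against WT mice that did not pass (adjusted p = 0.204), and of 0.00090 between zQ175 and zQ175:CK2a'(+/-) mice (95% interval -0.14 to 0.15). Mapk3, which encodes the kinase ERK1, was at 59.4 to 68.3 CPM in zQ175 and 76.4 to 85.6 CPM in WT mice (log2 fold change -0.35, standard error 0.0763, adjusted p = 0.0557). Neither set of levels overlapped between zQ175 and WT mice, where 2.44% of all genes did not. The call of Creb1 held in 6 and that of Mapk3 in 11 of 18 alternatives (adjusted p up to 0.498 and 0.496).

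Of the RXR partners and dopaminergic targets of NR4A2, 8 of 9 were tested and 0 passed in any comparison, where 0.00478% to 1.10% of all genes did. Their median log2 fold change was 0.26 in zQ175 against WT mice (all genes 0.0042) and 0.39 against zQ175:CK2a'(+/-) mice (all genes 0.0051). Th, which encodes the enzyme that makes L-DOPA and was singled out after its values were seen, had a log2 fold change of 0.40 in zQ175 against zQ175:CK2a'(+/-) mice (95% interval -0.45 to 1.24, adjusted p = 0.924). It rests on zQ175 replicate 1, the mouse with midbrain dopamine neuron markers, where Th was at 11.4 CPM, against 1.40 to 3.36 CPM in the other 4 zQ175 mice and 2.15 to 5.10 CPM in zQ175:CK2a'(+/-) mice. In the same list Ddc was at 15.5 CPM and Ret at 29.6 CPM in that mouse, against 3.33 to 7.72 CPM and 4.19 to 8.79 CPM in the other zQ175 mice, and the list medians include it. The 2 of the list with the smallest p in that comparison were Vip, a neuropeptide gene (2.60, adjusted p = 0.646), and Rxrb, which encodes a retinoid X receptor (-0.22, adjusted p = 0.849). Vip was at 2.04 CPM in zQ175 replicate 5 and at most 0.80 CPM in the other 17 mice.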

How the data were processed

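The deposited table held counts per gene, which the authors made with Subread 1.6.2 from stranded total RNA reads aligned to GRCm38 with HISAT2 2.1.0, after FastQC and Trimmomatic. Reads under mapping quality 60 and duplicates had been removed. Gene length, as deposited by the authors, was used to give CPM per kb. Whether the counting used strand is not given in the sources used here. Symbols were matched for 55154 of 55421 genes from GENCODE, and promoters came from RefSeq on GRCm38.p6. No column of another sample was present.

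Groups followed the labels. Genotypes were compared with edgeR 4.0.16 (R 4.3.3, limma 3.58.1), using TMM scaling, filterByExpr, the quasi-likelihood test over all 18 libraries and Benjamini-Hochberg adjustment, with a threshold of 0.1 as in the study's methods. Total counts of 13612381 to 22702547 per library set the precision, and intervals are at 95%. log2 CPM used a prior count of 2. DESeq2 1.42.0, other filters and scalings, a replicate block and leaving out libraries were tried as alternatives, as the closing section tells.

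The members, gene lists and marker lists were chosen with earlier results of these data known. The text names every member, the genes of each list that passed or, where none passed in any comparison, the 2 with the smallest p between zQ175 and zQ175:CK2a'(+/-) mice, and the 5 genes most like Nr4a2 and Arc. Exceptions are named as chosen after their values were seen. The test was tested on simulated data with 200 of 20914 genes changed.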

Additional observations from a re-analysis of the deposited data

Results flagged for a closer look

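Values were set aside for a closer look where the highest or lowest mouse of a group of 5 lay far from the other 4 by Dixon's criterion (gap over range above 0.71). Chance sets aside about 5% of groups, and 5 of 54 were, 27 of members and 27 of marker lists having been tested. Nr4a3 was at 56.5 CPM in zQ175 replicate 5, against 17.0 to 27.7 CPM in the other 4 zQ175 mice. It was the 1 member so marked.

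The other 4 were sums of marker genes. Striatal projection neuron markers summed to 1809 CPM in zQ175 replicate 1 (others 3080 to 3594 CPM), and midbrain dopamine neuron markers in the same mouse to 52.2 CPM (others 5.00 to 11.2 CPM). Choroid plexus markers summed to 3064 CPM in zQ175:CK2a'(+/-) replicate 2 (others 11.5 to 16.2 CPM), and astrocyte markers to 3973 CPM in WT replicate 2 (others 2688 to 3060 CPM). In zQ175 against WT mice, the log2 fold change of Nr4a2 was 1.31 without zQ175 replicate 1 (adjusted p = 0.124) and 1.30 without WT replicate 2 (adjusted p = 0.0883).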

How the results depend on the processing

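Over 54 results of members (9 members, 6 comparisons) and 972 values under alternatives, 951 kept their side of the threshold, among them 76 whose sign changed where the value was under 1 standard error. Another 20, all of Nr4a2, lost a call, and 1 reversed. Nr4a3 in zQ175 against WT mice ranged from -0.081 (without zQ175 replicate 5) to 0.51 with single mice left out.

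The number of members that passed in zQ175 against WT mice went from 1 (Nr4a2) to 0 with only the 2 groups compared (adjusted p = 0.153), without the 2 mice highest in cortical markers, without the 4 mice with choroid plexus markers and with the Xist level, which follows sex, as a covariate (Nr4a2 1.23, adjusted p = 0.121). The last 3 were chosen after seeing the data. With single mice left out it ranged from 0 to 1, with the adjusted p of Nr4a2 from 0.0488 to 0.230. In zQ175 against zQ175:CK2a'(+/-) mice it also went from 1 to 0 without the 2 mice highest in cortical markers, and ranged from 0 to 1 with single mice left out (adjusted p 0.0198 to 0.158). The cause was not tested. Nr4a2 passed in both comparisons with DESeq2, with its size factors and with no filter on low counts.

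With the replicate block, Nr4a2 no longer passed in either comparison (1.37, adjusted p = 0.125, and 2.28, adjusted p = 0.117), and the count of members went from 1 to 0 in each. The replicate numbers were not shown to pair mice. Correlations of same-numbered mice were -0.14 to 0.12 in 24 pairs, with 2 over 0.1.

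All genes that passed in zQ175 against WT mice numbered 230, against 451 with no filter, 855 with DESeq2, 98 with the replicate block, 0 with only the 2 groups and 0 to 587 with single mice left out. In zQ175 against zQ175:CK2a'(+/-) mice they numbered 3, against 51 with no filter, 39 with DESeq2, 1 with the block and 1 to 6 with single mice left out. In zQ175:CK2a'(+/-) against WT mice they numbered 3, against 85 with no filter, 123 with DESeq2, 1 with the block or only the 2 groups and 1 to 34 with single mice left out (34 without WT replicate 2 and 33 without WT replicate 4). In CK2a'(+/-) against WT mice they numbered 3, against 19 with no filter, 11 with DESeq2, 1 with the block, 0 with only the 2 groups and 1 to 9 with single mice left out, and for the interaction 1, against 10 with no filter, 19 with DESeq2 and 0 to 2 with single mice left out. In zQ175:CK2a'(+/-) against CK2a'(+/-) mice they numbered 124, against 297, 322 and 12, 461 with only the 2 groups and 6 to 48 with single mice left out. In zQ175 against WT mice, Bdnf passed in 9, Penk in 11, Creb1 in 6 and Mapk3 in 11 of 18 alternatives, and none reversed. Counts of Nr4a2 as low as 20 limit the precision in the lowest mice.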
